A study of Mus musculus with 6 samples.

Results

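The PGC-1 network and the uncoupling protein genes comprised 10 genes, each found as 1 row by its gene name among the 28510 rows of the deposited RNA table. They are the coactivator genes Ppargc1a, Ppargc1b and Pprc1, the transcription factor genes Esrra and Nrf1, the mitochondrial DNA factor genes Tfam, Tfb1m and Tfb2m, and the carrier genes Ucp2 and Ucp3. RNA came from the tibialis anterior, the muscle along the shin, of 12-month-old C57BL/6 mice. The 3 KO samples lacked both genes for the histone variant H2A.Z, H2A-Z.1 (H2afz) and H2A-Z.2 (H2afv), and were positive for HSA Cre, which is driven by the human skeletal actin promoter in muscle fibres. The 3 WT samples had both genes floxed and no HSA Cre. The question was how loss of H2A.Z alters transcription in muscle. Whole muscle also holds macrophages, adipocytes, endothelium and other cells in which this Cre is not known to act, and fewer cells of a type cannot be told apart from less RNA per cell.

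PGC-1 coactivators have no DNA-binding domain of their own and act through factors such as ERRα, the product of Esrra, and nuclear respiratory factor 1, the product of Nrf1, on nuclear genes for mitochondrial proteins. Among these genes is Tfam, whose product packages mitochondrial DNA and is needed to start its transcription. UCP2 and UCP3 are carriers of the inner mitochondrial membrane. UCP3 is known mainly from skeletal muscle fibres, where its gene responds to fatty acids and fasting, and UCP2 is found in many tissues and is high in immune cells such as macrophages.

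Libraries held 62318774 to 102919416 counts in KO and 35456883 to 88477775 in WT, and mitochondrially encoded genes took 21.7% to 32.1% of the counts in KO and 19.9% to 25.5% in WT. In CPM, counts scaled to library size with TMM factors, the deleted genes did not overlap between groups. H2afz stood at 4.14 to 5.15 CPM in KO against 15.2 to 18.5 CPM in WT, and H2afv at 3.77 to 4.57 CPM in KO against 15.96 to 20.7 CPM in WT. Of 10 fibre markers, among them Acta1 and Ckm, none was at 0 in any library. They summed to 161713 to 204720 CPM in KO and 232022 to 255221 CPM in WT. The largest part of that sum was Ttn, at 81893 to 107389 CPM in KO and 120628 to 132607 CPM in WT. The log2 fold change was below 0 for 6 of the 10 markers and above 0 for 4. Tnnt3, a fast troponin gene, fell (log2 fold change -0.70, SE 0.22), as the single fibre marker to pass, and the number was 0 without KO replicate 1, KO replicate 2, WT replicate 1 or WT replicate 3, 3 without KO replicate 3 and 4 in DESeq2. Against this background, 25.9% of the 16628 genes tested passed in edgeR at an adjusted p below 0.05, 13.5% as risen and 12.4% as fallen in KO. Of the genes that passed, 52.2% had risen with TMM scaling and 76.8% with library size alone, where the overall median was 0.22 in place of 0.01 on the log2 scale.

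All 10 genes passed the filter on low counts. In KO muscle Ucp2 rose to 2.35 times its WT level, while Ucp3 fell to 32.0% and Tfam to 69.4% of WT. The remaining 7 genes did not pass, and of these Ppargc1a and Ppargc1b had opposite signs. Passing genes were thus 1 risen and 2 fallen of 10, or 30.0%, near the 25.9% of all genes tested. The median log2 fold change was -0.14 over the 10 genes and 0.01 over all genes tested.

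The sequences just upstream of the 3 genes that passed are shown because H2A.Z is known to lie in the nucleosomes around transcription start sites. They are the 250 bases before the RefSeq start in GRCm38.p6, the build of that table and not the mm9 build of the deposited counts. The Tfam sequence is chr10:71238045-71238294 on the minus strand, that of Ucp2 is chr7:100493108-100493357 on the plus strand and that of Ucp3 is chr7:100472741-100472990 on the plus strand. Capitals mark matches on either strand to the GC box GGGCGG, the ETS-family site CCGGAAG, the CRE half-site TGACG and the E-box CAGCTG.
Tfam: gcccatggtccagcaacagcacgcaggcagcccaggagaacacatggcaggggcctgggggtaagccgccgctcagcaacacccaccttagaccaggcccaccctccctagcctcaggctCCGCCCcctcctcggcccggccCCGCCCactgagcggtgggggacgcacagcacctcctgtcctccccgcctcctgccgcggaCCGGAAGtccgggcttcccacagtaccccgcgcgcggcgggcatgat
Ucp2: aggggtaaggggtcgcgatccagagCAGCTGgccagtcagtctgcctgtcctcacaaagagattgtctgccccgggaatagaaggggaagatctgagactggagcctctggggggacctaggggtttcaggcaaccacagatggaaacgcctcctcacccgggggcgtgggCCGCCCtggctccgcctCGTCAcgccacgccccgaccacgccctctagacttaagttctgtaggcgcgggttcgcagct
Ucp3: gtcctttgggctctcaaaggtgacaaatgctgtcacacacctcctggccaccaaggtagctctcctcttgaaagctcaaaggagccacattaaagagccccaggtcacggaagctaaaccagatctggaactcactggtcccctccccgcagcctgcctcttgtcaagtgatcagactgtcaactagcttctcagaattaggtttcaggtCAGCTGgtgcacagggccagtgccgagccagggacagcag
The Tfam sequence held 2 GC boxes and 1 ETS-family site, a site type bound by GABP, a known activator of mitochondrial genes. The Ucp2 sequence held 1 GC box, 1 CRE half-site and 1 E-box of the kind bound by MyoD-family factors, and the Ucp3 sequence held 1 such E-box. No 2 of these matches overlapped. Of 32851 RefSeq windows of the same length, 32.7% held the GC box, 6.91% the ETS-family site, 17.8% the CRE half-site and 13.0% the E-box. The ERR half-site AAGGTCA, the NRF1 site, the MEF2 site and the full CRE TGACGTCA, which contains the CRE half-site, were also searched on both strands. They occurred in 4.08%, 3.74%, 3.2% and 1.55% of all windows and in none of the windows of the 9 genes with an entry, which says only that these letters are not in these windows. G and C made up 72.0% of the Tfam sequence, 63.6% of that of Ucp2 and 54.8% of that of Ucp3, against a median of 52.4% over all windows.

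**Figure D1:**
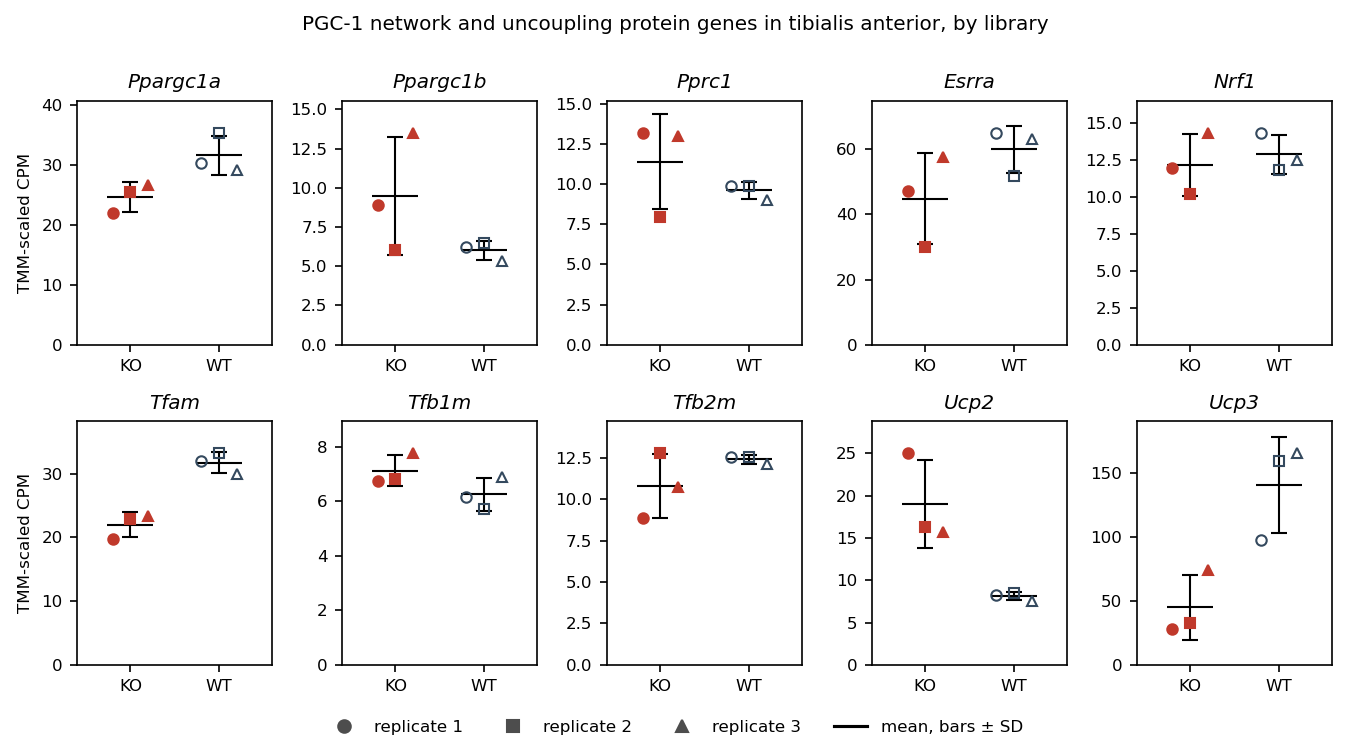
TMM-scaled CPM (vertical axes from 0) of the 10 genes in each of 3 KO libraries (filled) and 3 WT libraries (open), with symbols for replicate numbers and bars for mean ± SD. Ucp2 lay higher in all 3 KO libraries than in any WT library, and Ppargc1a, Tfam and Ucp3 lay lower.

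Ucp3 had the largest log2 fold change in size of the 10 genes. It stood at 27.9, 33.1 and 74.2 CPM in the KO libraries of replicates 1, 2 and 3, against 97.7, 159 and 165 CPM in the WT libraries. KO replicate 3 lay well above the other KO libraries and WT replicate 1 below the other WT libraries, and the groups did not overlap. The log2 fold change was -1.64 (SE 0.34, 95% interval -2.39 to -0.89), with an adjusted p of 0.00617 in edgeR. Ucp3 was lower in 3 of 3 KO libraries than in any WT library. The largest KO value of Ucp3 was 2.66 times the smallest, against 1.69 times in WT.

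Ucp2 moved the other way. It stood at 25.0, 16.3 and 15.8 CPM in the KO libraries, against 8.30, 8.46 and 7.54 CPM in the WT libraries. KO replicate 1 was the highest, and every KO library lay above every WT library. The log2 fold change was 1.23 (SE 0.19, 95% interval 0.81 to 1.65), with an adjusted p of 0.00138 in edgeR. Ucp2 and Ucp3 lie next to each other on chromosome 7, in the same orientation and with no annotated gene between them, Ucp3 upstream. Exons of Dnajb13 on the other strand share 4.36% of the annotated exon bases of Ucp2, and Dnajb13 itself had 8, 2 and 1 counts in the KO libraries and 2, 16 and 3 in the WT libraries. Ucp2 had 1059 to 2548 counts per KO library and 297 to 676 per WT library.

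The ratio of the 2 carrier genes within a library does not depend on scaling. In CPM per kb of the longest coding transcript, the ratio of Ucp3 to Ucp2 was 1.82, 3.30 and 7.68 in the KO libraries, against 19.2, 30.6 and 35.7 in the WT libraries. The 2 groups of ratios did not overlap, which follows from Ucp3 being lower and Ucp2 higher in every KO library than in any WT library. Which gene was higher in KO rested on the length used. With the deposited length the ratios were 0.42, 0.765 and 1.78 in the KO libraries, against 4.43, 7.08 and 8.26 in the WT libraries, so that Ucp2 lay above Ucp3 in KO replicates 1 and 2. The difference in log2 ratio between KO and WT is the same under any length. On the log2 scale the ratio was 1.84 ± 1.04 in KO and 4.78 ± 0.47 in WT (SD, n = 3 each), a difference of -2.94. An exact two-sided permutation test gave p = 0.1, the smallest that 3 libraries against 3 allow. Given the separation of each gene, that outcome was fixed and adds nothing to their fold changes.

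The level of Ucp2 and markers of macrophages were high in the same group of libraries. Of 18 macrophage markers, 15 rose in KO, beside 13.5% of all genes tested. Itgam, Mrc1 and Cd163 did not pass, and the log2 fold change was above 0 for all 18. The median log2 fold change over the 18 was 1.39, and none was at 0 in any library. On the log2 scale, the fold change of the lysosomal protease gene Ctss was 2.91 (SE 0.34), that of Ptprc, which encodes the leukocyte antigen CD45, was 1.91 (SE 0.25), and that of the signalling adaptor gene Tyrobp was 1.90 (SE 0.28). The 18 markers summed to 516, 462 and 331 CPM in KO replicates 1, 2 and 3 and 221, 207 and 99.8 CPM in WT replicates 1, 2 and 3. KO replicate 1 was highest in both the marker sum and Ucp2. KO replicates 2 and 3 had almost the same Ucp2 level at unequal marker sums. Single markers differed in their highest library: Ctss was highest in KO replicate 1, at 44.2 CPM, and Lyz2 in KO replicate 2, at 163 CPM. The part of these cells in the Ucp2 result was not tested.

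Of brown and white adipocyte markers, 7 of the 9 tested rose as well, beside 13.5% of all genes tested. They included Cidea at 2.80 (SE 0.31) and the lipid droplet coat gene Plin1 at 1.93 (SE 0.32) on the log2 scale. Without KO replicate 2 the number was 3 and without WT replicate 1 it was 4. Each of these 7 lay higher in every KO library than in any WT library. Over all genes tested, the groups did not overlap for 42.6%. The summed level of the whole list was 129 to 198 CPM in KO and 104 to 140 CPM in WT, and these ranges overlapped. Most of that sum was Fabp4, a fatty acid binding protein gene, at 66.8 to 118 CPM in KO and 87.0 to 93.3 CPM in WT (log2 fold change 0.01). Ucp1, the uncoupling protein of brown fat and the founding member of the family, had 2, 0 and 1 counts in the KO libraries and 0 in each WT library, too few to test. Of the 9 tested markers, 8 had a log2 fold change above 0. Prdm16 alone was below 0, and it did not pass. The part of adipocytes in the results was not tested. Of 10 endothelial markers 1 fell, Vwf (log2 fold change -0.67, SE 0.15), beside 12.4% of all genes tested, and 3 fell without KO replicate 3.

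**Figure D2:**
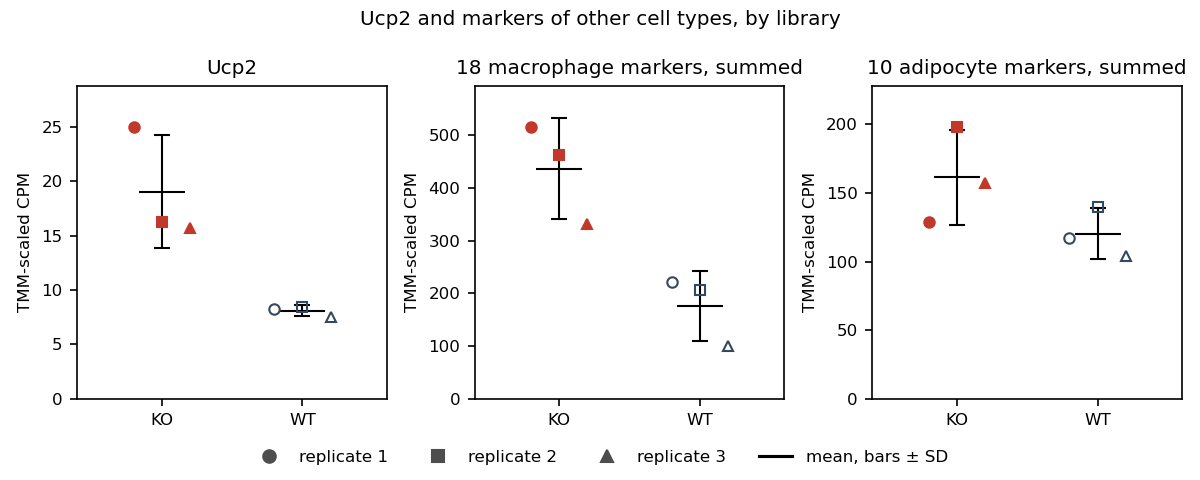
TMM-scaled CPM (vertical axes from 0) of Ucp2, of the sum of 18 macrophage markers and of the sum of 10 adipocyte markers in each KO (filled) and WT (open) library, with bars for mean ± SD (n = 3). KO libraries lie above all WT libraries for Ucp2 and for the macrophage sum, at 331 to 516 CPM against 99.8 to 221 CPM, but not for the adipocyte sum, most of which is Fabp4.

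Of the coactivators, Ppargc1a, which encodes PGC-1α, stood at 21.9, 25.5 and 26.7 CPM in the KO libraries, against 30.3, 35.4 and 29.3 CPM in the WT libraries. Every KO library lay below every WT library, a separation seen for 42.6% of all genes tested and for 4 of these 10 genes. The log2 fold change was -0.36 (SE 0.14, 95% interval -0.67 to -0.04), and it did not pass, with an adjusted p of 0.0878 in edgeR. Ppargc1b, which encodes the close relative PGC-1β, stood at 8.89, 6.06 and 13.5 CPM in the KO libraries, against 6.20, 6.47 and 5.36 CPM in the WT libraries. KO replicates 1 and 3 lay above all WT libraries and KO replicate 2 among them. Its log2 fold change was 0.66 (SE 0.25, 95% interval 0.11 to 1.22), with an adjusted p of 0.0755 in edgeR. Without KO replicate 2, Ppargc1b passed at a log2 fold change of 0.91 and an adjusted p of 0.0113 in edgeR, and with all libraries it passed in DESeq2 at an adjusted p of 0.0382, over a range of 0.00869 to 0.264 for its 16 alternatives. Without KO replicate 3 its log2 fold change was 0.35, with an adjusted p of 0.264 in edgeR.

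Pprc1, the gene of the third family member PRC, stood at 13.2, 7.97 and 13.0 CPM in the KO libraries, against 9.90, 9.89 and 9.02 CPM in the WT libraries. KO replicate 2 was the lowest of all 6, with the other KO libraries the highest. Its log2 fold change was 0.25 (SE 0.19), with an adjusted p of 0.383 in edgeR, and 0.47 with an adjusted p of 0.0231 without KO replicate 2. Per kb of the longest coding transcript, the ratio of Ppargc1a to Ppargc1b was 1.39, 2.38 and 1.12 in the KO libraries. In the WT libraries it was 2.76, 3.09 and 3.09. With the deposited length the ratios were 4.63, 7.89 and 3.71 in KO, against 9.16, 10.3 and 10.2 in WT. Under either length the KO and WT ratios did not overlap. The difference in log2 ratio was -0.94, and the exact two-sided permutation test gave p = 0.1, its smallest value here.

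**Figure D3:**
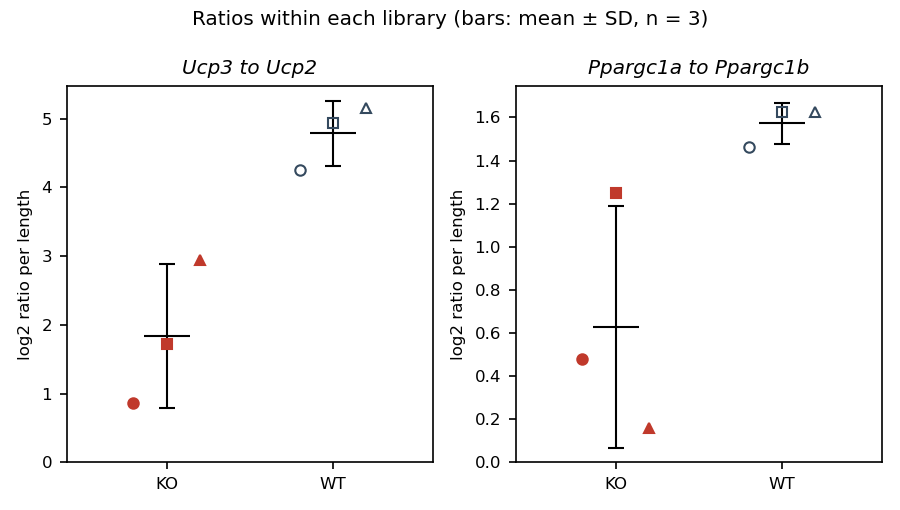
Log2 ratio, per kb of the longest coding transcript, of Ucp3 to Ucp2 (left) and of Ppargc1a to Ppargc1b (right) in each KO (filled) and WT (open) library, with bars for mean ± SD (n = 3). All KO ratios lie below all WT ratios, with a difference of -2.94 for the carriers and -0.94 for the coactivators. For the carriers this follows from the separation of each gene by itself.

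Neither partner transcription factor gene passed. Esrra, whose product ERRα is a main partner of PGC-1α in muscle, stood at 47.1, 29.9 and 57.6 CPM in the KO libraries, against 65.1, 51.8 and 63.1 CPM in the WT libraries. KO replicate 2 was the lowest and KO replicate 3 lay within the WT range. The log2 fold change was -0.42 (SE 0.22, 95% interval -0.90 to 0.06), with an adjusted p of 0.181 in edgeR. It was -0.18 without KO replicate 2 and -0.61 without KO replicate 3. Nrf1 stood at 10.2 to 14.3 CPM in KO and 11.8 to 14.3 CPM in WT. Its log2 fold change was -0.08 (95% interval -0.44 to 0.27), and its sign turned with library size alone and without KO replicate 2.

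Tfam stood at 19.8, 23.0 and 23.3 CPM in the KO libraries, against 32.0, 33.3 and 30.0 CPM in the WT libraries. Both groups were tight and did not overlap. The log2 fold change was -0.53 (SE 0.13, 95% interval -0.82 to -0.24), with an adjusted p of 0.0150 in edgeR. The call was lost without KO replicate 1, at an adjusted p of 0.0765, without WT replicate 1, at 0.0616, and with library size alone, at 0.111, over a range of 0.00322 to 0.111 for its 16 alternatives, DESeq2 and limma-voom included. The first 3 of these values are from edgeR.

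The mitochondrial transcription factor genes of the other kind did not follow Tfam past the threshold. Tfb2m, whose product opens the promoter for the mitochondrial RNA polymerase, stood at 8.88, 12.8 and 10.7 CPM in the KO libraries, against 12.5, 12.5 and 12.1 CPM in the WT libraries. WT libraries were nearly equal, and KO replicate 2 lay above them and the other KO libraries below. The log2 fold change was -0.20 (95% interval -0.55 to 0.15), and 0.0023 with library size alone. Tfb1m, which encodes a methyltransferase of mitochondrial ribosomal RNA, stood at 6.76 to 7.76 CPM in KO and 5.70 to 6.90 CPM in WT, with a log2 fold change of 0.18 (95% interval -0.16 to 0.53). Exons of Tiam2 on the opposite strand share 3.93% of the annotated exon bases of Tfb1m, and Tiam2 rose by log2 1.46 (adjusted p of 0.000364 in edgeR).

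**Figure D4:**
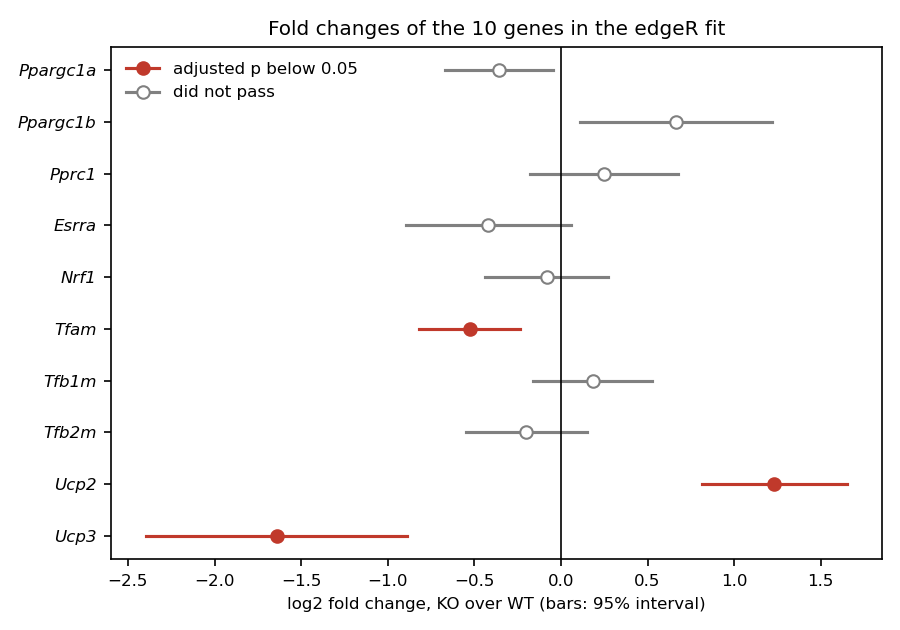
Log2 fold change of KO over WT (horizontal axis) with 95% intervals from the edgeR fit of 3 KO and 3 WT libraries, filled where the adjusted p is below 0.05. Ucp2 at 1.23 lies right of 0, Ucp3 at -1.64 and Tfam at -0.53 lie left of it, and the intervals of Ppargc1a and Ppargc1b lie on opposite sides of 0 although neither passed after adjustment.

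The ratio of the largest to the smallest value was wider among KO than among WT libraries for 9 of the 10 genes, Tfb1m being the exception. For Ppargc1a it was nearly equal, at 1.217 in KO and 1.210 in WT. The share of all genes with a wider KO ratio was not computed, so this count cannot be called particular to the 10 genes. The largest KO value was 2.23 times the smallest for Ppargc1b, 1.66 times for Pprc1, 1.93 times for Esrra and 1.41 times for Nrf1. In WT the same ratios were 1.21, 1.10, 1.26 and 1.21. In each of these 4 genes KO replicate 2 was the lowest KO library, a pattern picked out after the values were seen. That library had 32.1% of its counts in mitochondrially encoded genes, against 21.7% and 22.02% in the other KO libraries, and the part of this in its levels was not tested. KO replicate 2 was not the lowest KO library for Ppargc1a, Tfam, Tfb1m, Tfb2m, Ucp2 or Ucp3.

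Levels of different genes were compared in CPM per kb of the longest protein-coding transcript. In KO muscle Esrra (20.01 ± 6.25) and Ucp3 (18.4 ± 10.4) came first. They were followed by Tfam (5.29 ± 0.46), Tfb1m (5.07 ± 0.41), Ucp2 (4.77 ± 1.30), Tfb2m (4.41 ± 0.80), Ppargc1a (3.82 ± 0.38), Nrf1 (3.39 ± 0.58), Ppargc1b (2.59 ± 1.03) and Pprc1 (2.1701 ± 0.56; SD, n = 3). Except between Ucp3 and Tfam, the libraries of each neighbouring pair in this order overlapped. In WT muscle Ucp3 (57.5 ± 15.3) stood above Esrra (26.8 ± 3.196), Tfam (7.62 ± 0.40), Tfb2m (5.06 ± 0.11), Ppargc1a (4.90 ± 0.51), Tfb1m (4.46 ± 0.43), Nrf1 (3.59 ± 0.36), Ucp2 (2.03 ± 0.12), Pprc1 (1.83 ± 0.10) and Ppargc1b (1.64 ± 0.16; SD, n = 3). There the neighbours Tfb2m and Ppargc1a, Ppargc1a and Tfb1m, and Pprc1 and Ppargc1b overlapped.

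The order rests on the gene length used. The length behind the deposited signal was 554 bases for Pprc1, 654 for Esrra and 706 for Ucp2, against 5246, 2242 and 3988 bases for their longest coding transcripts in GENCODE M21. It equalled the median transcript length of that annotation for Tfam at 779 bases and for Ucp3 at 1872. With the deposited length, the KO order became Esrra (68.6 CPM per kb), Tfam (28.3), Ucp2 (26.9), Ucp3 (24.1) and then Pprc1 (20.5), which was last under the longest coding transcript. In WT muscle Esrra (91.7 CPM per kb) rather than Ucp3 (75.2) was then highest. Ucp3, Esrra and Tfam were the leading 3 genes in WT under the longest coding transcript, the union of exons and the deposited length. The fold changes of KO over WT do not depend on this length.

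Other genes of the pathway were examined as lists. Among 17 partner and target transcription factors, 1 rose and 3 fell, or 23.5%, near the 25.9% of all genes, with a median log2 fold change of 0.03. Rxra, the shared partner of PPAR receptors, fell to 72.9 ± 13.0 CPM in KO, against 140 ± 8.47 CPM in WT (log2 fold change -0.95, SE 0.16, adjusted p of 0.00247 in edgeR). Esrrb, a relative of Esrra, fell by 1.31 on the log2 scale (SE 0.31) at a low level, and Lpin1, a phosphatidate phosphatase gene whose product also works with PGC-1α in mouse liver, fell by 0.77 (SE 0.23). The clock repressor gene Nr1d1 rose by 0.81 (SE 0.20). Lpin1 did not pass in 5 of the 16 alternatives. Fallen genes of this list numbered 2 with library size alone and without KO replicate 1, KO replicate 2, WT replicate 1 or WT replicate 2. With library size alone 2 rose. Ppara, Ppard, Esrrg and Gabpa had log2 fold changes of 0.25, 0.04, -0.07 and 0.03 and did not pass.

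Among 19 upstream regulators of PGC-1, 2 rose and 4 fell, or 31.6%, near the 25.9% of all genes, with a median log2 fold change of -0.17. With library size alone 2 fell. Smarcd3, which encodes the muscle remodelling subunit BAF60c, fell by 1.34 (SE 0.18) on the log2 scale. Nrip1, the gene of the corepressor RIP140, fell by 0.78 (SE 0.17), Kat2a, the gene of the acetyltransferase GCN5 that acts on PGC-1α, by 0.63 (SE 0.16), and the p38α kinase gene Mapk14 by 0.61 (SE 0.16). The AMP-activated kinase subunit gene Prkaa1 rose by 0.74 (SE 0.15) and the calcium-dependent kinase gene Camk2b by 0.67 (SE 0.18), and 1 regulator rose without KO replicate 1, WT replicate 1 or WT replicate 2. Prkaa2, which encodes the α2 subunit typical of muscle, had a log2 fold change of -0.37 (SE 0.17) and did not pass.

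Of 17 genes for mitochondrial DNA maintenance and transcription, 1 fell and none rose in edgeR, beside 12.4% fallen and 13.5% risen over all genes. Their median log2 fold change was -0.02. Risen genes also numbered 0 in DESeq2, in limma-voom and at an unadjusted p below 0.05 in edgeR, and the gene that fell was Top1mt. Top1mt, the mitochondrial topoisomerase gene, stood at 2.94 ± 0.62 CPM in KO and 7.72 ± 0.98 CPM in WT (log2 fold change -1.39, SE 0.20, adjusted p of 0.000843 in edgeR). Without KO replicate 2, 3 genes fell, and 2 fell in DESeq2 and in limma-voom. Polrmt, the gene of the mitochondrial RNA polymerase that works with TFAM and TFB2M, had a log2 fold change of -0.38 (SE 0.24), and Ssbp1, which encodes the single-strand binding protein, -0.27 (SE 0.13).

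Of 7 carriers related to the uncoupling proteins that were tested, 2 rose and 1 fell, beside 13.5% risen and 12.4% fallen over all genes, and a list this short allows no reading of that count. Slc25a30, a relative of the uncoupling proteins also called KMCP1, fell to 4.04 ± 0.78 CPM in KO, against 19.6 ± 9.17 CPM in WT (log2 fold change -2.27, SE 0.29, adjusted p of 0.000478 in edgeR). The dicarboxylate carrier gene Slc25a10 rose by 1.00 (SE 0.21) on the log2 scale and the adenine nucleotide carrier gene Slc25a5 by 0.45 (SE 0.15). Slc25a4, the main adenine nucleotide carrier gene of muscle, stood at -0.42 (SE 0.21) on that scale and did not pass. Risen carriers numbered 1 in limma-voom and when any library other than KO replicate 2 was left out, and 2 carriers fell without KO replicate 2.

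Of 16 lipid-responsive genes shared by PPAR and ERR receptors, 1 fell in edgeR, 7 in DESeq2 and 2 in limma-voom. Over all genes tested, 12.4% fell in edgeR. The log2 fold change was below 0 for 14 of the 16 (median -0.35) and for 8152 of all 16628 genes tested. None of the 16 rose in any of these tools, nor at an unadjusted p below 0.05 in edgeR, where 7 were lower. The gene that fell was Slc25a20, the carnitine-acylcarnitine carrier gene, at -0.58 (SE 0.16, adjusted p of 0.0206 in edgeR). Cpt2, the carnitine acyltransferase gene of the inner membrane, had -0.44 (SE 0.15), and Pdk4, a kinase gene that like Ucp3 responds to fasting, -0.76 (SE 0.31). The number that fell in edgeR was 0 with library size alone and 6 with the replicate block, 0 without KO replicate 1 or WT replicate 2, 3 without KO replicate 2 or WT replicate 1, and 4 without KO replicate 3.

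Of 18 oxidative enzyme and related genes known as ERR and NRF1 targets, 1 fell and none rose in edgeR. Over all genes tested, 12.4% fell and 13.5% rose. The median log2 fold change of the 18 was 0.01. At an unadjusted p below 0.05 in edgeR, 2 of the 18 were lower and 0 higher. None rose in DESeq2 or limma-voom. The gene that fell was Fndc5, the irisin precursor gene, at 14.6 ± 4.03 CPM in KO and 44.9 ± 6.91 CPM in WT (log2 fold change -1.62, SE 0.21, adjusted p of 0.000462 in edgeR). Fndc5 is known to respond to PGC-1α in mouse muscle. Vegfa, an angiogenic factor gene, stood at -0.53 (SE 0.18). The citrate synthase gene Cs and the cytochrome c gene Cycs had 0.18 and 0.21, and neither passed. Without KO replicate 3, 3 of these genes fell, without WT replicate 3, with library size alone or with the replicate block 1 rose, and in DESeq2 and limma-voom 2 fell.

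**Figure D5:**
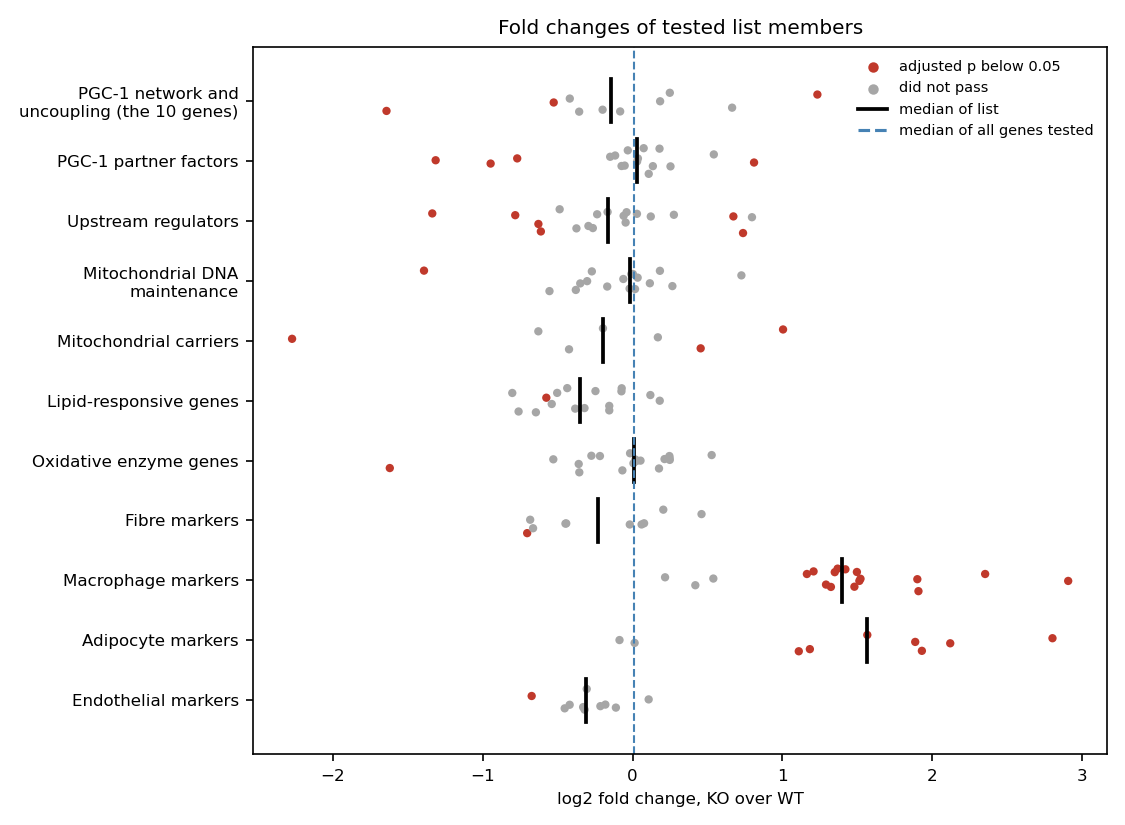
Log2 fold change of KO over WT (horizontal axis) for each tested member of the 10 genes and of 10 gene lists, red where the adjusted p in edgeR is below 0.05, with a bar at each list's median and a dashed line at 0.01, the median of all genes tested. Medians lie at -0.14 for the 10 genes, -0.35 for lipid-responsive genes, 1.39 for macrophage markers and 1.57 for adipocyte markers.

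Patterns over the 6 libraries were compared with those of 10141 other tested genes whose log2 CPM averaged 1 or more. Mitochondrially encoded genes and genes with a RIKEN, predicted-gene or accession-like name were left out. Among the genes kept, the patterns most like that of Ppargc1a belonged to Kdsr, Tlk2 and Ganc. The root mean square difference of their centred log2 CPM values from those of Ppargc1a was 0.03, 0.05 and 0.05. Kdsr, a sphingolipid synthesis gene, stood at 6.51 to 7.57 CPM in KO and 8.77 to 10.3 CPM in WT. For Ucp3 the nearest patterns were those of the glucose transporter gene Slc2a3, the cadherin gene Celsr2 and the zinc transporter gene Slc30a2, at 0.28, 0.37 and 0.38. Slc2a3 stood at 4.74, 6.20 and 8.85 CPM in the KO libraries, against 16.9, 18.2 and 21.8 CPM in the WT libraries, and KO replicate 3 was its highest KO library, as for Ucp3.

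In the authors' deposited table, 14.5% of all 28510 rows had an adjusted p below 0.05, and 3 of the 10 genes did. These rows include genes that the filter on low counts removed here, whereas all 10 genes passed that filter. The 14.5% is thus on another base than the 25.9% of 16628 genes tested in edgeR. In the authors' deposited table, the log2 fold change was 1.17 for Ucp2 (adjusted p of 3.6e-07), -1.27 for Ucp3 (0.0124) and -0.52 for Tfam (0.00305). The same authors' deposited table gave 0.61 for Ppargc1b (0.0784) and -0.35 for Ppargc1a (0.114).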

How the data were processed

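Stranded libraries were made from RNA of frozen tibialis anterior depleted of ribosomal RNA, per the labels' protocols. Named in the submitters' processing notes are bcl2fastq 2.17.1.14, TopHat2 2.0.14, Bowtie, HTSeq 0.6.1 and the build mm9, without roles. Neither the strand setting of the counting nor the annotation is stated there. Deposited by the authors were raw read counts per gene, a signal normalized by them and expressed per kb of gene length, and their own log2 fold change of KO over WT with its p-value and adjusted p-value, per the file headers; no source used here states how these were computed. Counts were used as deposited, and the signal only to derive the authors' gene length.

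The quasi-likelihood F test of edgeR 4.0.16 (R 4.3.3) compared KO with WT, using TMM scaling, no covariate and filterByExpr (min.count 10, min.total.count 15), with Benjamini-Hochberg adjustment over 16628 genes and a threshold of 0.05. Genes past it are said to have risen or fallen. Such a fit was tested on simulated data. Levels are TMM-scaled CPM, and the SE is the size of the log2 fold change divided by the square root of F. Log2 ratios had 0.5 added to each count and were compared by exact two-sided permutation (scipy 1.17.1). Symbols absent from the table were matched by identifier to GENCODE M21. The labels number replicates but do not say that each is its own animal, so the p-values reflect variation among these samples, which may be technical. Libraries of one group differed far beyond counting noise, at a chi-square of 80.9 to 279 per degree of freedom.

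The 10 genes and the lists were chosen with earlier results of these data known. Named genes are the 10, both targets, up to 4 genes with the lowest p in each list, and the 3 patterns most like those of Ppargc1a and Ucp3 (log2 CPM with a prior count of 2). Other genes named were chosen after their values were seen, as were the alternative gene lengths. Alternatives were other scalings and filters, DESeq2 1.42.0, limma-voom 3.58.1, robust estimation, a replicate block, omission of mitochondrial and haemoglobin genes, and omission of each library in turn. Figures were drawn with matplotlib 3.10.9.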

Additional observations from a re-analysis of the deposited data

How the results depend on the processing

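Risen genes of the 10 numbered 1, and 2 with library size alone, without an expression filter or in DESeq2, each time with Ppargc1b added. They numbered 1 to 3 with each library left out, the highest without KO replicate 2, where Ppargc1b and Pprc1 were added. Fallen genes of the 10 numbered 2, and 1 with library size alone, where Tfam no longer passed. They numbered 1 to 2 with each library left out. Ucp2 and Ucp3 passed in all 16 alternatives, at log2 fold changes of 1.00 to 1.46 and -2.18 to -1.39. Signs turned for Nrf1, to 0.13 with library size alone and 0.0442 without KO replicate 2 (range -0.187 to 0.0442 with each library left out), and for Tfb2m, to 0.0023 with library size alone, and neither passed there.

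Over all genes, 2249 rose and 2062 fell, against 3418 and 1030 with library size alone. With each library left out, 1391 to 2321 rose, the fewest without KO replicate 1 and then 1477 without WT replicate 3, and 1168 to 2189 fell, the fewest without KO replicate 1 and then 1234 without WT replicate 1. The targeted genes fell in all 16 alternatives, with log2 fold changes of -1.92 to -1.63 for H2afz and -2.27 to -1.95 for H2afv. The difference in log2 ratio of KO minus WT ranged from -3.49 to -2.45 for Ucp3 to Ucp2 and from -1.25 to -0.71 for Ppargc1a to Ppargc1b with each library left out. The deviations of samples with the same replicate number were only weakly correlated over genes, at 0.06, 0.02 and 0.06. For the other pairs of a KO and a WT sample the correlations were -0.08 to 0.02. With the replicate block, 2457 genes rose and 2236 fell, and of the 10 genes 1 rose and 2 fell. The SE of the log2 fold change was then 0.21 for Ucp3 and 0.14 for Tfam, against 0.34 and 0.13 without the block. Low counts limited Ucp1 alone among the uncoupling protein genes, and with 3 libraries a group the exact ratio tests cannot go below p = 0.1.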
